A study of Mus musculus with 6 samples.

Results

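The mitochondrial ribosomal protein genes were taken as the genes whose symbols begin with Mrpl (large subunit) or Mrps (small subunit) followed by a digit. There were 78 such genes, 49 named for the large and 29 for the small subunit, among 23896 genes with a symbol. Each gene was represented by its RefSeq transcript with the highest mean count, and 7 of the 78 genes had more than 1 transcript. All 78 genes passed the filter on low counts, and the least covered of them, Mrpl23, still had 514 counts over all libraries. The mRNA-seq libraries were made from MEL cells, a single mouse erythroleukemia line held at an early erythroid stage, before treatment with 2% DMSO (day 0) and on its days 2 and 4. Each day had 2 biological replicates, which gave 6 libraries. Cultures kept for the same time without DMSO were not analysed here, so time in culture and treatment cannot be told apart. In bulk libraries, fewer cells that carry an mRNA and less of that mRNA per cell cannot be told apart either.

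Between 35294930 and 53899476 counts fell on transcripts per library. Reads on no annotated feature made up 50.5% to 58.4% of the reads listed either on transcripts or on no feature. The erythroid identity of the line was visible in its markers, since 9 erythroid genes, among them Gata1, Klf1 and the globins Hba-a1 and Hbb-bs, summed to 1007 CPM (counts per 1000000 counts, with library sizes scaled by TMM factors) in the lowest library and 19620 in the highest. Most of the highest sum came from Hba-a1 and Hbb-bs, at 11460 and 5101 CPM in that library, where Gata1 had 263 and Klf1 171. Markers of B cells summed to at most 0.172 CPM, those of T cells to at most 1.30, those of granulocytes and macrophages to at most 5.26 and those of fibroblasts to at most 8.3. Globin transcripts took 0.034% of the counts in the lowest library and 4.13% in the highest, and their part in the results below was not tested beyond a scaling that left them out.

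Mitochondria translate a small set of their own mRNAs, which encode core subunits of the respiratory chain and of ATP synthase. They do so on a ribosome of their own, the mitoribosome, whose RNAs come from the mitochondrial genome and whose proteins are all encoded in the nucleus, made in the cytosol and imported. The small subunit reads the mRNA, and the large subunit joins the amino acids and passes the new chain into the inner membrane. Some of these proteins descend from bacterial ribosomal proteins, whereas others were added in the mitochondrial lineage. In erythroid cells, mitochondria also carry out the first and last steps of heme synthesis, and they are cleared as the cells mature.

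At day 2, RNA abundance had fallen for most of these genes and had risen for none. A gene was called when its Benjamini-Hochberg adjusted p in edgeR's quasi-likelihood test was below 0.05, and 65 of the 78 genes were called lower at day 2 than at day 0, where 31.5% of the 12381 genes tested were lower and 31% were higher. No member was called higher in edgeR, in DESeq2 or with any library left out, and only 2 of the 78 log2 fold changes, none past an unadjusted p of 0.05, lay above 0. The median log2 fold change was -0.77 over the members, against 0.01 over all genes tested. Scaled by total counts alone, which shifted the median of all genes to 0.21 and called 2881 genes lower and 5001 higher instead of 3902 and 3841, the members' median was -0.57, with 53 lower and 0 higher. At day 4, 63 members were lower than at day 0 and 1 was higher, where 36.4% of all genes tested were lower and 35.5% were higher. The median log2 fold change had then reached -0.91, against -0.02 over all genes. A log2 fold change of -1 or less was found for 35 of the 63, where 18.8% of all genes tested were called with such a fall. Both day 4 libraries lay below both day 0 libraries for 67 members, and this held for 42.4% of all genes tested.

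The members together took 0.4% of the counts in both day 0 libraries, 0.260% and 0.258% in the day 2 libraries, and 0.240% and 0.218% in the day 4 libraries. The groups did not overlap, and most of the loss lay between day 0 and day 2. Among the 63 genes lower at day 4, a median of 86.7% of the log2 change was already present at day 2. By then, 58 of them had passed over 50% of it. The same share was not computed for all genes tested, and both changes were taken against the same day 0 libraries. Over all genes, the first step also held more calls, with 3902 lower and 3841 higher, against 2010 and 1739 in the second.

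**Figure D1:**
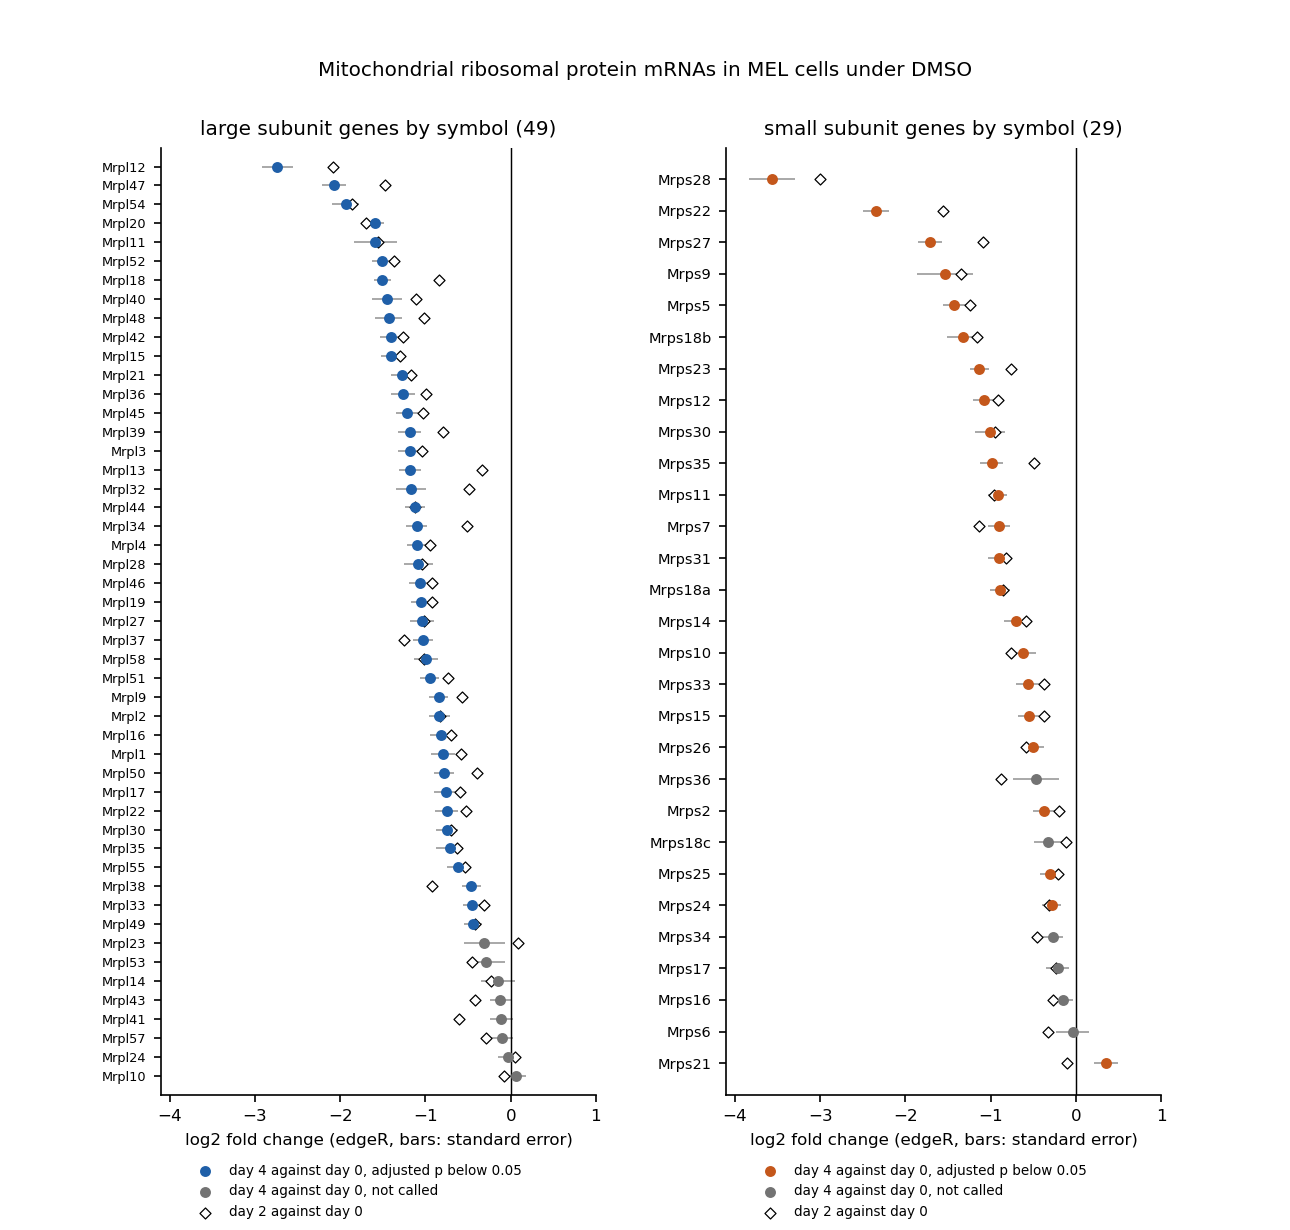
Log2 fold change of each of the 78 mitochondrial ribosomal protein mRNAs for day 4 against day 0 (filled points, with standard errors) and day 2 against day 0 (open diamonds), with large subunit genes on the left and small subunit genes on the right. Nearly all points lie left of 0, from -3.57 for Mrps28 to 0.35 for Mrps21, and grey points mark the 14 genes that were not called at day 4.

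Large and small subunit genes both fell at the first step. At day 2, 43 of the 49 large subunit genes and 22 of the 29 small subunit genes were lower, with median log2 fold changes of -0.84 and -0.76. At day 4, 41 large subunit genes and 22 small subunit genes were lower than at day 0, and the medians were -1.04 and -0.70. Falls of 1 or more on the log2 scale were made by 26 large subunit genes (53.1%) and 9 small subunit genes (31%). The medians depended on which genes were counted. Without Mrpl23, Mrps25 and Mrps34, whose counts may include reads of other transcripts, the small subunit median at day 4 was -0.89 and the large subunit median -1.05. In the solved structure of the mitoribosome, the products of Mrps30 and Mrps18a sit in the large subunit and that of Mrps36 is absent. Placing genes by that structure gave 51 large and 26 small subunit genes. Their medians were -0.84 and -0.58 at day 2, and -1.03 and -0.66 at day 4.

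The ratio between the subunits can be read within each library, where scaling between libraries drops out. Summed counts of large subunit genes were 2.46 and 2.34 times those of small subunit genes at day 0, 2.08 and 2.05 times at day 2, and 1.83 and 1.84 times at day 4. This ratio of summed counts was lower on each later day with no overlap between days, and it fell by 0.565 from day 0 to day 4. With 2 libraries per day, the exact permutation test (two-sided) gave its smallest possible p of 0.333, so it cannot separate any of the days. This ratio rested on 2 abundant genes, which were singled out after their values were seen. Mrps21 alone made up 13.2% and 9.2% of small subunit counts at day 0, and 22.4% and 22.4% at day 4. Mrpl12 made up 7.89% and 11.9% of large subunit counts at day 0, and 3.22% and 2.90% at day 4. Without both genes the ratio was 2.61 and 2.27 at day 0, 2.36 and 2.38 at day 2, and 2.28 and 2.31 at day 4, and day 0 overlapped both later days. The large to small ratio of median TPM, which corrects for length and is described below, took another course. It was 1.32 and 1.35 at day 0, 1.52 and 1.59 at day 2, and 1.40 and 1.41 at day 4, and was not tested.

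**Figure D2:**
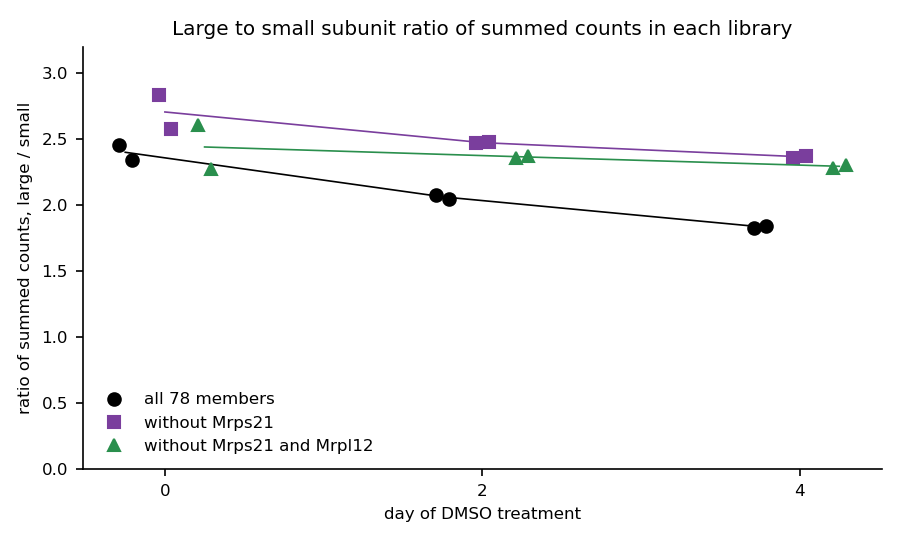
Ratio of summed counts of large to small subunit genes in each of the 6 libraries by day, for all 78 members (circles), without Mrps21 (squares) and without Mrps21 and Mrpl12 (triangles), with lines through the day means. The ratio of all members fell from 2.40 to 1.84, while without both genes the day 0 libraries lie on either side of the later ones.

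Among large subunit genes, the most affected was Mrpl12 (NM_027204, chromosome 11 from 120484637 to 120488754 of GRCm38). It encodes the mitochondrial counterpart of the bacterial stalk protein, which contacts translation factors, and its product also binds mitochondrial RNA polymerase. It had 239 and 362 CPM in the day 0 libraries, 73.8 and 68.2 at day 2, and 48.9 and 41.4 at day 4. The days did not overlap, and 15.0% of the day 0 level was left at day 4. Its log2 fold change was -2.08 at day 2 (standard error, SE, 0.18, edgeR adjusted p = 3.65e-06) and -2.74 at day 4 (SE 0.18, edgeR adjusted p = 3.02e-07). The 300 bases around its start, 250 before and 50 after (chr11:120484387-120484686, plus strand), are shown because no other large subunit gene fell as far, and they hold none of the motifs searched below.
Mrpl12: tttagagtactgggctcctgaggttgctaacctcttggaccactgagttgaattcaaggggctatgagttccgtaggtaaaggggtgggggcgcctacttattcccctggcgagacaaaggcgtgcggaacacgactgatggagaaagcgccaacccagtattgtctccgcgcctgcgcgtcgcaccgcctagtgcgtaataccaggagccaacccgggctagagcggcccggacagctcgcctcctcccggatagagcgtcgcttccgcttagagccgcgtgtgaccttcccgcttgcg

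The stalk and its base, where translation factors dock, showed the widest spread of any structural group examined. Of the genes placed there, Mrpl11, Mrpl12 and Mrpl54 fell, whereas Mrpl10 and Mrpl53 were not called. Mrpl54 (NM_025317, chromosome 10 from 81264722 to 81266926) went from 97.3 and 72.7 CPM at day 0 to 24.1 and 22.8 at day 2, and stayed at 24.3 and 20.1 at day 4. Its log2 fold change at day 4 was -1.94 (SE 0.15, edgeR adjusted p = 9.65e-07), and no second fall followed the first. Mrpl11 (NM_025553), whose product forms the base to which the stalk is attached, had 32.3 and 64.6 CPM at day 0 and between 15.2 and 17.0 in the later libraries. The day 0 replicates of Mrpl11 were far apart, so its log2 fold change of -1.59 at day 4 carried a standard error of 0.25 (edgeR adjusted p = 0.000159) and was -1.02 without the second day 0 replicate. Mrpl10 (NM_026154) encodes the anchor that holds the Mrpl12 protein on the ribosome, and its 6 libraries lay between 32.4 and 38.1 CPM on all days. For Mrpl10 the log2 fold change at day 4 was 0.06 (SE 0.12, edgeR adjusted p = 0.63). Mrpl53 (NM_026744) had 61.5 and 32.8 CPM at day 0 and between 31.6 and 38.7 later. Its groups overlapped, and its values at day 4 were 0.22 without the first day 0 library and -0.69, which was called, without the second. Without a filter on low counts Mrpl53 was called lower at day 2 (-0.44) and day 4 (-0.29, edgeR adjusted p = 0.049).

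Around the exit of the tunnel, where new chains leave the large subunit, 4 of 6 genes fell by day 4 and 2 were not called. Mrpl47 (NM_029017, chromosome 3 from 32727497 to 32736755), a counterpart of a bacterial protein at the tunnel exit, had 33.9 and 35.3 CPM at day 0, 13.6 and 11.2 at day 2, and 8.95 and 7.53 at day 4. It declined at each step, to a log2 fold change of -2.07 at day 4 (SE 0.15, edgeR adjusted p = 4e-07). Mrpl45 (NM_025927), whose product lies at the exit facing the inner membrane, went from 110 and 90.1 CPM at day 0 to 45.7 and 40.6 at day 4, a log2 fold change of -1.21 (SE 0.13, edgeR adjusted p = 7.08e-06). Mrpl17 and Mrpl22 fell less, with log2 fold changes of -0.76 and -0.75 at day 4 (edgeR adjusted p = 0.00052 and 0.000344). In Mrpl22, 43.2% of 31-base words also occur in annotated pseudogenes, so part of its reads may belong there. Mrpl24 (NM_026591) had 71.6 and 59.6 CPM at day 0 and 64.4 and 63.5 at day 4, with overlapping groups and a log2 fold change of -0.04 (SE 0.11, edgeR adjusted p = 0.778). Mrpl23 had only 1.57 to 2.45 CPM in any library and shares 67.6% of its words with a pseudogene, so its value of -0.31 (edgeR adjusted p = 0.273) is uncertain.

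The central protuberance, a knob on the large subunit that faces the small one, behaved more evenly. All 6 genes listed for it (Mrpl18, Mrpl38, Mrpl40, Mrpl46, Mrpl48 and Mrpl55) were lower at day 2 and at day 4 than at day 0, and the log2 fold changes at day 4 ran from -1.51 for Mrpl18 to -0.47 for Mrpl38. Other large subunit genes fell to a like extent. Mrpl20 (NM_025570), which encodes an rRNA-binding protein, went from 106 and 109 CPM at day 0 to 34.2 and 32.3 at day 2 and 36.3 and 35.3 at day 4, a log2 fold change of -1.59 at day 4 (SE 0.10, edgeR adjusted p = 2.23e-07). Mrpl52 (NM_026851), a protein without a bacterial counterpart, went from 39.7 and 40.6 CPM to 13.9 and 14.3 at day 4 (log2 fold change -1.51, SE 0.12, edgeR adjusted p = 9.27e-07). The whole of the fall of Mrpl20 lay in the first step, and Mrpl52 had already reached -1.37 at day 2. Mrpl58 (NM_026729), a peptidyl-tRNA hydrolase built into the large subunit that frees stalled chains, had 50.2% of its day 0 level left at day 4 (log2 fold change -0.995, SE 0.14, edgeR adjusted p = 5.9e-05).

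**Figure D3:**
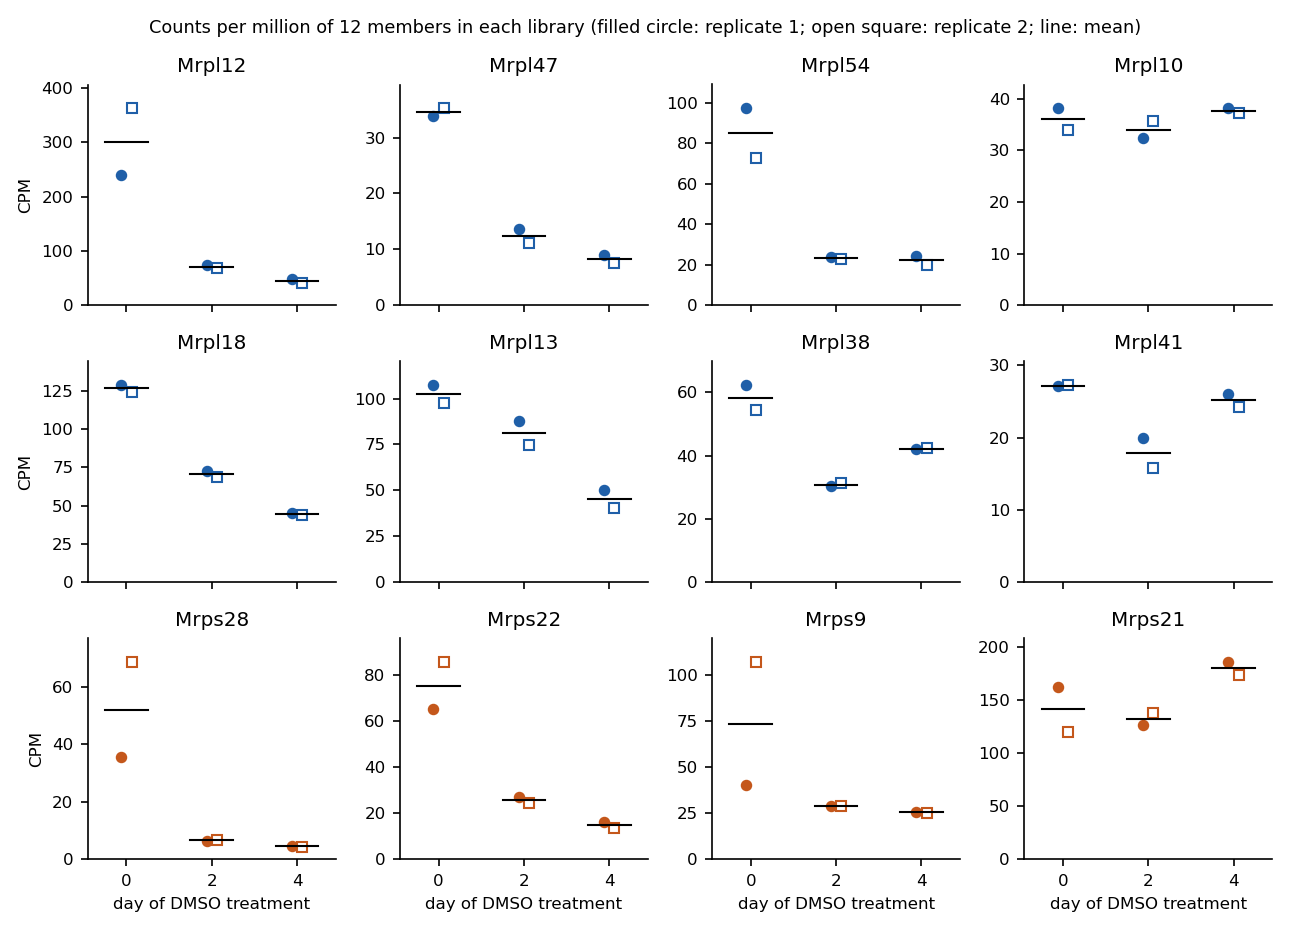
CPM of 12 members in each library (filled circle, replicate 1; open square, replicate 2) by day, with a line at the mean of each day and large subunit genes in blue, small in orange. Mrpl12, Mrpl47, Mrpl54, Mrps28 and Mrps22 lie far lower at days 2 and 4 than at day 0, Mrpl13 and Mrpl18 also drop from day 2 to day 4, Mrpl38 and Mrpl41 come back up at day 4, and Mrps21 is highest at day 4.

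In the small subunit, Mrps28 (NM_025434, chromosome 3 from 8802146 to 8923857) fell further than any other member of either subunit. Its product is related to bacterial ribosomal protein S1. It had 35.5 and 68.7 CPM at day 0, 6.47 and 6.53 at day 2, and 4.599 and 4.22 at day 4, so that 8.45% of the day 0 level was left. The day 0 replicates differed widely, yet both stood above every later library. The log2 fold change was -3.00 at day 2 (SE 0.26, edgeR adjusted p = 3.6e-06) and -3.57 at day 4 (SE 0.27, edgeR adjusted p = 6.73e-07), and it lay between -3.97 and -3.02 at day 4 under every alternative tried.

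Mrps22 (NM_025485, chromosome 9 from 98588730 to 98601679) and Mrps27 (NM_173757, chromosome 13 from 99344767 to 99415562) encode proteins added to the mitochondrial small subunit and absent from bacteria. Mrps22 had 65.1 and 85.7 CPM at day 0, 27.0 and 24.4 at day 2, and 16.1 and 13.6 at day 4. It dropped at each step, with a log2 fold change of -1.55 at day 2 and -2.35 at day 4 (SE 0.15 and 0.16, edgeR adjusted p = 7.9e-06 and 2.81e-07). Mrps27 followed the same course at a lower level, from 47.7 and 39.1 CPM at day 0 to 21.7 and 19.1 at day 2 and 13.8 and 12.8 at day 4 (log2 fold change at day 4 -1.71, SE 0.14, edgeR adjusted p = 1.09e-06). The promoter window of Mrps22 (chr9:98601630-98601929, minus strand) is shown as that of the small subunit gene with the largest fall among those in the promoter table, with the core of an ETS factor motif in capitals.
Mrps22: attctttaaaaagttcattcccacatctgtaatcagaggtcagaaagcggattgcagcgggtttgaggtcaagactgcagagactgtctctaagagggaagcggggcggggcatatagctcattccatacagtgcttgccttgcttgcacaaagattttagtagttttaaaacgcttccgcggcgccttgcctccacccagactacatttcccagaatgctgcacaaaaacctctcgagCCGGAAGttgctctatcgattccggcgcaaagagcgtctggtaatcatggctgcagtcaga

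Mrps9, Mrps5 and Mrps18b, all with bacterial counterparts, completed the 6 largest falls of the small subunit, with log2 fold changes of -1.53, -1.42 and -1.33 at day 4 (edgeR adjusted p = 0.00131, 3.42e-06 and 4.74e-05). Mrps9 (NM_023514) had 40.1 CPM in the first day 0 library and 107 in the second, the widest gap between replicates of any member, and between 25.3 and 29.1 in the later libraries. Its direction held against both day 0 libraries, whereas its size did not, since it was -0.67 without the second, and the standard error was 0.32. Mrps5 was steadier, with 27.7 and 34.2 CPM at day 0 and 11.6 and 11.5 at day 4.

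Only Mrps21 (NM_078479, chromosome 3 from 95862634 to 95871514) was called higher at day 4 than at day 0. It encodes a small protein with a bacterial counterpart, and its mRNA was the most abundant of all members per length, at a mean of 1305 TPM. It had 162 and 119 CPM at day 0, 126 and 137 at day 2, and 186 and 173 at day 4. The day 4 libraries stood above all others, but the day 0 replicates were as far apart as the days. The log2 fold change was 0.35 at day 4 (SE 0.14, edgeR adjusted p = 0.0438), a call that was lost with RLE factors, in a fit of days 0 and 4 alone and without any library other than the first day 0 replicate. Without the second day 0 replicate the value was 0.13. In Mrps21, 22.3% of 31-base words also occur in pseudogenes. Its promoter window (chr3:95871465-95871764, minus strand) is shown because it stands against the other members, with an ETS core read on the opposite strand in capitals.
Mrps21: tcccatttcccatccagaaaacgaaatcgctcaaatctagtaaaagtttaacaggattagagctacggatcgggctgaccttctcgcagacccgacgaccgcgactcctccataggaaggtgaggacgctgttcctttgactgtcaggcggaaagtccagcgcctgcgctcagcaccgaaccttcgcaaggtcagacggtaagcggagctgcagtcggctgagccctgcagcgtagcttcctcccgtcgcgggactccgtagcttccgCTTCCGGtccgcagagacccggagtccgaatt

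The MRPS18 genes are a family of 3 paralogs of a single bacterial protein, of which Mrps18a and Mrps18b were called lower at day 4. Mrps18b (NM_025878) went from 41.1 and 27.3 CPM at day 0 to 14.5 and 12.7 at day 4. An annotated pseudogene holds 33.9% of its 31-base words, and a gene on the opposite strand overlaps 30.5% of its exon bases. Mrps18a (NM_026768) went from 31.5 and 34.8 CPM to 17.9 and 17.99, with a log2 fold change of -0.89 (edgeR adjusted p = 5.03e-05). Mrps18c (NM_026826) had 23.8 CPM in both day 0 libraries, 26.4 and 17.7 at day 2, and 20.1 and 17.96 at day 4. Its log2 fold change at day 4 was -0.32 (SE 0.17, edgeR adjusted p = 0.11), it was called lower without a filter on low counts (-0.32, edgeR adjusted p = 0.0398), and the differences between the paralogs were not tested. The symbols of some members differ from their place in the cell. Mrps30 (NM_021556), named for the small subunit but found in the large, had 49.8% of its day 0 level at day 4 (log2 fold change -1.004, SE 0.18, edgeR adjusted p = 0.000344). Its day 0 replicates were 48.6 and 75.3 CPM, and without the second the log2 fold change was -0.67. Mrps36 (NM_001190264), whose product belongs to the 2-oxoglutarate dehydrogenase complex, had 2.23 and 4.07 CPM at day 0 and 2.13 and 2.45 at day 4. Its groups overlapped, its value was -0.46 (edgeR adjusted p = 0.142), and annotated pseudogenes hold 41.6% of its 31-base words.

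Between day 2 and day 4 the changes were small and mixed. Of the 78 members, 12 (15.4%) were lower and 3 (3.85%) were higher, where 16.2% of all genes tested were lower and 14% were higher. The share of lower members thus lay near that of all genes, while the share of higher members lay below it. The median log2 fold change was -0.12 over the members and -0.00 over all genes. Scaled by total counts alone, 2532 of all genes were lower and 1228 higher instead of 2010 and 1739, and of the members 14 were lower and 2 higher. These calls also hung on single libraries. Members called lower numbered 2 without the first day 2 replicate, 7 without the second, 4 without the second day 4 replicate, and 16 without either day 0 replicate. Those called higher numbered 1 without the first day 2 replicate, 0 without the second or without either day 4 replicate, and 5 and 6 without the first and second day 0 replicate.

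Taking both steps together, 51 members (65.4%) were lower at day 2 with no call afterwards, against 20.8% of all genes tested. A further 12 (15.4%, against 9.05% of all genes) were called lower at both steps, and they were Mrpl12, Mrpl13, Mrpl18, Mrpl32, Mrpl34, Mrpl39, Mrpl47, Mrpl50, Mrps22, Mrps23, Mrps27 and Mrps35. Mrpl13 (NM_026759) was the member with the largest second step. It had 107 and 97.4 CPM at day 0, 87.5 and 74.6 at day 2, and 50.03 and 40.3 at day 4, so that most of its loss came late, with a log2 fold change of -0.34 over the first step and -0.84 over the second (edgeR adjusted p = 0.0403 and 0.00121). Mrpl18 (NM_026310), whose bacterial counterpart binds 5S rRNA, went from 129 and 124 CPM to 72.6 and 68.5 and then 44.9 and 44.2, about equal steps of -0.84 and -0.66 (edgeR adjusted p = 3.03e-05 and 0.00099). Mrpl39 passed the threshold of the second step by the narrowest margin and lost it with the replicate number as a block.

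Mrpl38 and Mrpl41 were the only members whose steps were called in opposite directions. Mrpl38 (NM_024177), a protein of the central protuberance, had 62.3 and 54.4 CPM at day 0, 30.3 and 31.4 at day 2, and 42.1 and 42.4 at day 4. It regained part of its level, with log2 fold changes of -0.92 and then 0.45 (edgeR adjusted p = 4.16e-05 and 0.0116). Mrpl41 (NM_001031808) had 27.1 and 27.3 CPM at day 0, 19.9 and 15.8 at day 2, and 26.1 and 24.3 at day 4. Its steps were -0.61 and 0.50 (edgeR adjusted p = 0.00226 and 0.0177), and an annotated pseudogene holds 25.1% of its 31-base words. By day 4, Mrpl41 was within 0.11 of its day 0 level on the log2 scale, lower in both libraries and not called (edgeR adjusted p = 0.466). The rise of Mrpl38 lost its call without any day 2 or day 4 library, and that of Mrpl41 without the second day 2 replicate or either day 4 replicate.

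**Figure D4:**
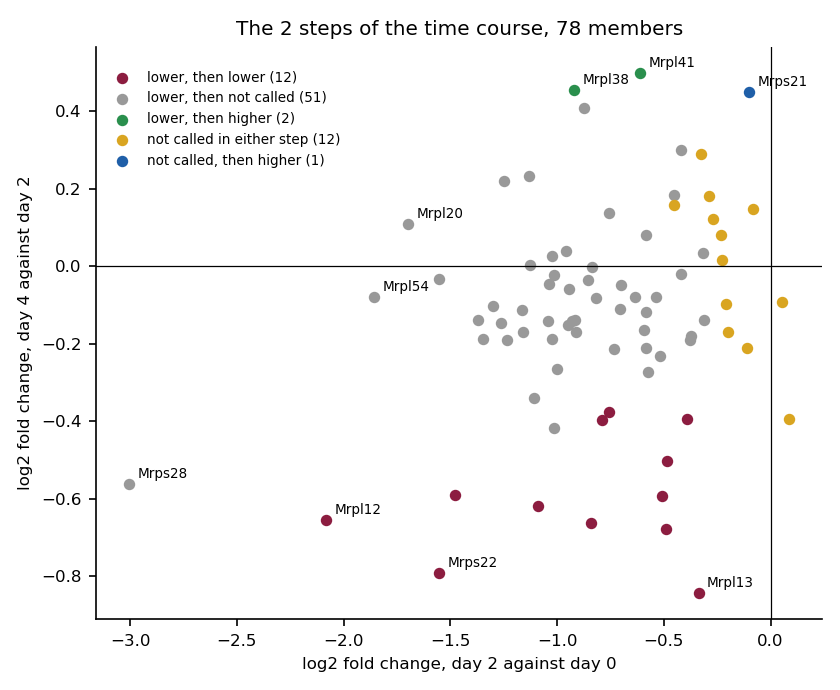
Log2 fold change of each of the 78 members from day 0 to day 2 (horizontal axis) and from day 2 to day 4 (vertical axis), coloured by the calls of the 2 steps. Most points lie well to the left of 0 and close to 0 in height, the 12 members lower at both steps lie at the lower edge, and Mrpl38, Mrpl41 and Mrps21 stand at the top.

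A further 12 members were called at neither step, which is 15.4% of the members against 28.4% of all genes tested. They were Mrpl10, Mrpl14, Mrpl23, Mrpl24, Mrpl53, Mrpl57, Mrps2, Mrps6, Mrps16, Mrps17, Mrps18c and Mrps25. Of these, Mrps2 was nevertheless lower over the whole course, from 28.2 and 25.7 CPM to 22.5 and 19.2 (log2 fold change -0.37, edgeR adjusted p = 0.021), and Mrps25 was called too. Mrps6, the second most abundant small subunit mRNA, was not settled by these libraries. Mrps6 (NM_080456) had 59.8 and 36.5 CPM at day 0 and 51.2 and 42.5 at day 4, and its sign at day 4 turned with the day 0 library left out, from 0.35 without the first to -0.36 without the second, both of which were called (edgeR adjusted p = 0.0231 and 0.0167).

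Divergence between replicates was a feature of day 0. The replicates differed by over 0.5 on the log2 scale for 13 members (16.7%) at day 0, 1 at day 2 and none at day 4. Over all genes tested the shares were 14.3%, 5.53% and 8.59%. The largest gaps at day 0 were 1.42 for Mrps9 and 1.00 for Mrpl11, higher in the second replicate, and 0.91 for Mrpl53, higher in the first. The count of members lower at day 4 was 63 without the first day 0 replicate and 68 without the second.

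Levels were compared between genes per length, as TPM (CPM after division by length and rescaling to the same total), with the lengths of the GENCODE transcripts paired with the RefSeq accessions. Mean TPM over the 6 libraries ranged from 5.97 for Mrpl48 to 1305 for Mrps21, with a median of 82.1, although mitoribosomal proteins other than that of the stalk are present in single copy in each ribosome. After Mrps21, the most abundant mRNAs were those of Mrpl33 at 550 TPM, Mrpl12 at 357 and Mrpl4 at 352, and, in the small subunit, Mrps6 at 184 and Mrps24 at 127. Exons of Mrpl33, Mrps6 and Mrps24 overlap exons of other genes on the same strand, and how reads there were counted is not given. Mrpl33 fell by 0.45 and Mrpl4 by 1.10 on the log2 scale at day 4 (edgeR adjusted p = 0.00333 and 8.39e-06), while Mrps24 had a value of -0.28 with a call near the threshold (edgeR adjusted p = 0.0399). That call was lost with total counts alone, without a filter, in a fit of days 0 and 4 and without any library other than the second day 0 replicate. Across the 78 genes, Spearman's rho between mean TPM and the log2 fold change at day 4 was -0.02, and that between transcript length and the change was -0.13. These describe genes measured in the same 6 libraries, which are not independent points, and the lengths of genes with alternative 3′ ends may not match what the cells use.

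Members of bacterial descent and members added later both fell. Mrps18a, Mrps30 and Mrps36 were placed in neither group here. Of 47 members with a bacterial counterpart, 38 (80.9%) were lower at day 4 and 1 was higher, with a median log2 fold change of -0.85. Of 28 members added in mitochondria, 23 (82.1%) were lower, all 28 values lay below 0, and the median was -0.99. Over all genes tested, 36.4% were lower and 35.5% higher at day 4. The difference between the 2 groups of members was not tested.

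Proteins of the mitoribosome that carry other symbols moved in the same direction. All 5 such genes (Dap3, Ptcd3, Chchd1, Aurkaip1 and Gadd45gip1) were lower at day 2 and at day 4 than at day 0, with log2 fold changes at day 4 between -1.34 and -0.39. Over all genes tested, 31.5% were lower at day 2 and 36.4% at day 4. Gadd45gip1, a large subunit protein, went from 46.2 and 43.0 CPM to 18.2 and 17.1 at day 4. Dap3, a GTP-binding protein of the small subunit, went from 152 and 171 to 102 and 97.5 (log2 fold change -0.69, edgeR adjusted p = 0.000128). In neither gene did the days 0 and 4 overlap.

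Factors that assemble the mitoribosome or modify its RNA were more varied. Of 24 listed, 22 were tested, and at day 4 there were 11 lower (50%) and 4 higher (18.2%). Over all genes tested, 36.4% were lower and 35.5% higher at day 4. The median log2 fold change of these factors was -0.34, and -0.23 with total counts alone. Mrm3, which methylates the large mitochondrial rRNA, was the lowest at -1.02, and Mrm1, another methyltransferase of the same rRNA, rose from 18.4 and 16.3 CPM to 47.5 and 55.3 (log2 fold change 1.57). Among mitochondrial translation factors, 16 of 17 listed were tested, with 11 lower (68.8%) and 3 higher (18.8%) at day 4 and a median of -0.66. The elongation factor Gfm1 went from 204 and 209 CPM to 69.9 and 67.9 (log2 fold change -1.58), and the release factor Mtrf1 had the largest fall at -1.90, whereas Guf1, a GTPase of the elongation factor family, rose by 1.18 on the log2 scale. Mitochondrial transcription showed no common direction over its 7 genes. Tfam, which packages mitochondrial DNA, fell by 1.16 and the elongation factor Tefm by 0.70 on the log2 scale at day 4. Mterf1a and Mterf1b were higher by 1.27 and 1.72, while Polrmt, Tfb2m and Mterf2 were not called.

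Other large protein complexes had smaller median changes at day 2. Of 81 cytosolic ribosomal protein genes tested, 26 (32.1%) were lower and 5 higher at day 2, a share of lower genes close to the 31.5% of all genes, with a median log2 fold change of -0.16, and 50 were lower and 5 higher at day 4, with a median of -0.46. Of 78 nuclear genes for oxidative phosphorylation subunits tested, 42 (53.8%) were lower and 2 higher at day 2, with a median of -0.39. At day 4, 45 of them (57.7%) were lower and 4 higher, with a median of -0.47, where 36.4% of all genes tested were lower and 35.5% higher. In the second step, 20 cytosolic ribosomal protein genes were lower and 3 higher, with a median of -0.22. With DESeq2, run without the filter on low counts and so on 83 of these genes, their medians were -0.24 for the first step and -0.21 for the second. Scaled by total counts alone, their median at day 2 turned to 0.04, with 15 lower and 15 higher, and that of the oxidative phosphorylation genes was -0.19. The differences between these lists were not tested, and many cytosolic ribosomal protein genes have pseudogenes.

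**Figure D5:**
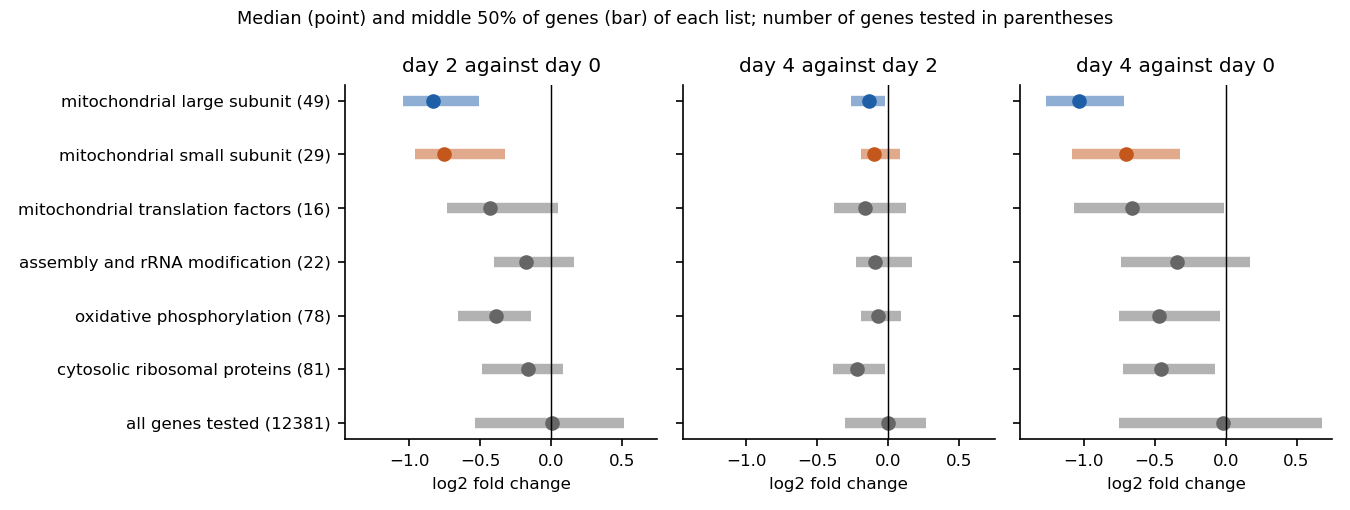
Median log2 fold change (points) and the middle 50% of genes (bars) of the large and small mitochondrial subunit genes, 4 related gene lists and all genes tested, in each of the 3 comparisons of days. The mitochondrial subunits lie furthest to the left for day 2 against day 0, at -0.84 and -0.76, and all lists lie close to 0 for day 4 against day 2.

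Promoter windows of 300 bases from RefSeq (GRCm38.p6) were on hand for 69 of the 78 genes, 75 windows in all, and were searched on both strands for the cores of 4 motifs. The ETS core CCGGAAG occurred in 26 windows (34.7%), against 18.1% of the 12235 windows of genes tested and 8.86% of all 32851 windows. The YY1 core AAGATGGC occurred in 12 (16.0%), against 4.59% and 2.75%, and the NRF1 core CGCATGCG in 7 (9.33%), against 3.84% and 1.87%. The E-box CACGTG was about as frequent in members (9.33%) as in windows of genes tested (9.91%). ETS and YY1 cores can share the letters AAG where they abut. A match describes letters only, and occupancy was not measured. Falls were found with and without a core, and the differences were not tested. The median log2 fold change at day 4 was -0.97 for the 26 genes with the ETS core and -0.84 for the 43 without, -0.97 for the 12 with the YY1 core and -0.82 for the 57 without, and -0.85 for the 7 with the NRF1 core and -0.89 for the 62 without.

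The YY1 core was the motif whose share in members was the largest multiple of that in genes tested, and 9 windows of 30 bases that hold it are shown. The other genes with the core are left out because the promoter sequence ends too near it, or because the window is not reported here. The windows are written on the strand that reads the core, with the core in capitals, since the core often runs on into the letters ggc.
Mrpl35 (chr6:71823743-71823772): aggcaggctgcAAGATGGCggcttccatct
Mrpl36 (chr13:73330968-73330997): cgccaggaagaAAGATGGCgtaaggtcacg
Mrpl37 (chr4:107066822-107066851): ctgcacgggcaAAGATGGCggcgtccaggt
Mrpl42 (chr10:95501904-95501933): cagattgaagcAAGATGGCgagcgcgcggt
Mrpl49 (chr19:6057721-6057750): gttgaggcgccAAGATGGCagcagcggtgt
Mrps7 (chr11:115604147-115604176): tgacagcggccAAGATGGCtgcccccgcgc
Mrps11 (chr7:78783013-78783042): gggaagacagaAAGATGGCggcgcccgtag
Mrps18a (chr17:46111004-46111033): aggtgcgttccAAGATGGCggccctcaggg
Mrps27 (chr13:99344789-99344818): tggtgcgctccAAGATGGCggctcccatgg
In Mrpl35, Mrpl37, Mrpl42, Mrpl49, Mrps7, Mrps18a and Mrps27 the core is read on the strand of the gene and begins between 11 and 27 bases after the annotated start. In Mrpl36 and Mrps11 it is read on the other strand and lies before the start. The core holds the letters ATG, those of a start codon. Whether it lies at the start of the coding sequence in any of these genes was not examined. All 12 genes with the core were called lower at day 4, as were 63 of all 78 members (80.8%) and 36.4% of all genes tested. Log2 fold changes of the 12 lay between -1.71 for Mrps27 and -0.28 for Mrps24, whose call was lost under the alternatives named above.

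Many members share their start region with another gene. Starts of protein-coding genes on the opposite strand were counted within 1000 bases when pointing away, or when overlapping by at most 200 bases. Such a start was found for 23 of the 78 members (29.5%), against 1476 of 11318 protein-coding genes tested (13.0%). Of the 23 partner genes, 13 were lower and 6 were higher at day 4, with a median log2 fold change of -0.50, where the members beside them had a median of -1.03. Over all genes tested, 36.4% were lower and 35.5% higher. Mrps12 and its partner Sars2, the mitochondrial seryl-tRNA synthetase, had log2 fold changes of -1.08 and -2.22, and Mrps27 and Ptcd2 fell as well, whereas Klc4, the partner of Mrpl2, was higher by 1.05. Exons of 28 members overlap exons of a gene on the opposite strand, and for Mrps25 and Mrps34 these overlaps cover 69.8% and 63.4% of the exon bases. The use of strand in counting is not given in the sources used here, so reads of these genes and of Nr2c2 and Mapk8ip3 on the other strand may not be told apart.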

How the data were processed

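MEL cells were sampled in 2 biological replicates at each of days 0, 2 and 4. According to the study's methods and the submitters' processing notes, the authors made TruSeq Stranded mRNA libraries, trimmed them with cutadapt, aligned them to mm10 with TopHat and counted with HTSeq; how HTSeq used strand or overlapping features is not given in the sources used here. The authors deposited raw counts per RefSeq transcript (32654 per library). Lines for reads on no feature were left out.

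Groups came from the sample titles. Gene symbols were looked up in a GRCm38 RefSeq table (32199 transcripts) and GENCODE M21 (187); 268 transcripts had none. Counts were analysed in edgeR 4.0.16 (R 4.3.3) with TMM factors, the filterByExpr filter on days, which left 18351 transcripts, and a single quasi-likelihood fit of the 6 libraries. The p-values were adjusted by Benjamini-Hochberg over all transcripts tested, with a call at values below 0.05. The SE of a change followed from its size and F statistic. TPM was computed over 1 transcript per gene. The fits were tested on simulated counts. Depth, from 35294930 to 53899476 counts, limits mainly Mrpl23 and Mrps36.

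The members, the lists and the tests were chosen with earlier results of these data known. Genes named were, per subunit, the 6 largest rises and falls at day 4 among called genes with separated libraries and an average log2 CPM of at least 1, the 3 highest in TPM, the stalk, tunnel exit and MRPS18 groups, genes with opposite steps, and Mrps30, Mrps36 and Mrpl58; Mrpl13, Mrpl18, Mrps2 and others named for a count or as examples lie outside this rule and were picked with their values in view. Alternatives were DESeq2 1.42.0, RLE factors, total counts, scaling without globins, no filter, a fit of 2 days only, the replicate number as a block, a limit on the log2 fold change, every transcript of a gene, subunit by structure and each library left out.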

Additional observations from a re-analysis of the deposited data

How the results depend on the processing

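The fall of the members held under every alternative tried. DESeq2, RLE factors, scaling without globins, no filter, every transcript of a gene and a replicate block kept the counts of members lower at day 2 and at day 4 within 1.5 times of those reported. With the replicate block they were 65 and 63, the step from day 2 to day 4 had 11 lower and 3 higher, and Mrpl39 lost its call; deviations of same-numbered libraries correlated by only 0.032 to 0.079 between days, and the labels tie no number to a shared culture. A limit of 1 on the size of the log2 fold change left 25 members (18 large, 7 small) lower at day 2, 35 (26 large, 9 small) at day 4, 0 higher at day 4, and 0 in either direction between days 2 and 4. Members called higher were 0 at day 4 with RLE factors or a fit of 2 days, and 5 between days 2 and 4 in the latter. Total counts moved the medians at day 2 to -0.64 (large) and -0.56 (small) and the small one at day 4 to -0.59. By structure the small subunit median at day 2 was -0.58. Without the 3 genes that share over 50% of their words or exon bases, a choice made after seeing the data, it was -0.89 at day 4. Without globins in the total, the shares at day 2 were 0.176% and 0.0853%.

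Leaving out each library in turn, where a lone library is taken to vary like the other days, gave 52 to 67 members lower at day 2 and 60 to 68 at day 4, 0 to 2 higher at day 4, and between days 2 and 4 from 2 to 16 lower and 0 to 6 higher. The medians of large and small subunit genes ranged from -0.84 to -0.80 and -0.78 to -0.60 at day 2, -0.18 to -0.07 and -0.19 to -0.04 from day 2 to day 4, and -1.05 to -0.99 and -0.79 to -0.66 at day 4. Small subunit genes lower were 17 to 24 and 19 to 24. Shares of counts ranged from 0.280% to 0.284%, 0.174% to 0.175% and 0.142% to 0.155% for the large subunit over the days, and 0.116% to 0.120%, 0.0844% to 0.0847% and 0.0768% to 0.0847% for the small.

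Among the named genes, whose values were recomputed one by one, the changes that turned sign had not been called, though Mrps6 at day 4 was called in both directions, each without a different day 0 replicate. With total counts these were Mrps21 (0.10), Mrpl10 (0.11) and Mrps18c (0.086) at day 2, and Mrps6 (0.076), Mrpl24 (0.077) and Mrpl41 (0.0039) at day 4. With libraries left out, the values at day 2 ranged from -0.31 to 0.14 for Mrps21, -0.65 to 0.071 for Mrps6, -0.17 to 0.0022 for Mrpl10, -0.84 to 0.071 for Mrpl53, -0.18 to 0.38 for Mrpl23, -0.080 to 0.19 for Mrpl24 and -0.43 to 0.15 for Mrps18c. Those at day 4 ranged from -0.36 to 0.35 for Mrps6, -0.031 to 0.14 for Mrpl10, -0.69 to 0.22 for Mrpl53, -0.18 to 0.10 for Mrpl24 and -0.83 to 0.033 for Mrps36. The causes were not tested. With 2 libraries per day, the spread within a day rests on a single difference, and depth limits Mrpl23 and Mrps36 most.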
